A study of Mus musculus with 12 samples.

Results

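The question here was whether ectopic Norrin shifted a gene by the same amount in the yolk sac at embryonic day 8.5 (E8.5) and at embryonic day 10.5 (E10.5). All 12 arrays of the series entered the answer, and all 18193 genes with a probe set of their own were tested, out of 18193. The measure for each gene was the Z/Norrin minus wild type difference at E10.5 less the same difference at E8.5, called the stage contrast below. A positive value means that the Norrin difference was higher at E10.5, and a negative value that it was lower. Values are log2 array intensities, so a difference of 1 is a 2-fold change of signal.

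The 4 groups were wild type and Z/Norrin yolk sacs at each stage, with 3 arrays a group. Z/Norrin embryos carried ectopic Norrin from a conditional over-expression strategy, and wild type embryos were its controls. Every embryo was of a C57Bl6/129 mixed background, sexes were mixed, and each array held RNA pooled from the yolk sacs of 3 to 5 embryos. The sources used here give neither the driver that switches the transgene on nor the time at which it acts. The 3 pools of a group are separate samples per the series text, so p-values measure the spread between pools.

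Norrin is a secreted cystine-knot protein that binds the receptor Fzd4 together with the coreceptor Lrp5 or Lrp6 and the tetraspanin Tspan12, and so stabilises beta-catenin; it is best known for its part in growth of the retinal vessels. The yolk sac is made of an outer visceral endoderm, which absorbs and secretes nutrients and plasma proteins much as the liver does later, and an inner mesoderm that forms blood islands, vessels and the first red cells. Between these stages the vessels are remodelled and blood begins to circulate.

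Defining markers of the labelled tissue were detected, which does not show that its make-up was even between genotypes. All 9 visceral endoderm markers, all 5 primitive erythroid markers and all 4 extraembryonic mesoderm markers stood above the array floor in every group, and of the 5 endothelial markers only Emcn was at the floor, in both Z/Norrin groups. The floor is the 95th percentile of the levels of 74 chemosensory receptor genes, and lay at 7.09 for E8.5 and 7.20 for E10.5. At E8.5, 10585 genes (58.2%) were above it in at least 1 group, against 11260 (61.9%) at E10.5. None of the 4 embryo neural markers was above the floor in any group. Pool medians of both marker lists still overlapped slightly between genotypes at E10.5. Erythroid sums were apart at E10.5 only, and endothelial sums overlapped at both stages. The part of these marker differences in the results below was not tested. The median SD within a group was 0.21 and 0.18 in wild type and Z/Norrin at E8.5, against 0.15 and 0.14 at E10.5. The number of arrays limits the precision: the median SE of the stage contrast was 0.22. The authors' normalisation appears to have been run on each stage apart, so stage and normalisation run cannot be told apart for a level; an offset shared by the arrays of a stage cancels in the stage contrast.

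The Z/Norrin pool numbered 2 stood apart at each stage in trophoblast genes. Relative to the wild type mean, the median of 12 trophoblast genes read -0.34, 1.13 and 0.02 in the Z/Norrin pools at E8.5 and 0.08, 1.89 and -0.10 at E10.5, where wild type pools lay between -0.27 and 0.14. Prl8a9, a placental prolactin-family hormone, read 4.12, 7.03 and 3.85 in Z/Norrin at E8.5 and 4.26, 10.44 and 4.32 at E10.5. Call counts are given with and without both of these pools. So are the medians of the hypoxia, immediate early, interferon, trophoblast and decidua lists. Values of single genes and of the other lists are not.

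The transgene could not be checked through Ndp, the gene for Norrin. Its mean level was 4.59, 4.54, 4.49 and 4.49 in wild type E8.5, Z/Norrin E8.5, wild type E10.5 and Z/Norrin E10.5, under the floor throughout. Whether its probe set reads the transgene is not known, so these levels check no label.

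Few single genes were called in the stage contrast. With 3 pools a group, a gene that was not called is not shown to be unchanged. At an adjusted p under 0.05, 17 of 18193 genes (0.0934%) were called in the stage contrast, 7 higher (0.0385%) and 10 lower (0.055%) at E10.5. Of these 17 genes, 9 were above the floor at E8.5 and 8 were not. The genes above it were Flt1, Adamts1 and Rhob among the higher genes and Rasgrp2, Fbp2, Pnp, Cpt2, Nqo2 and Misp among the lower. Those at the floor were Vldlr, Kif5c, Aox4 and Gulo among the higher and Saa4, Slc16a7, Abcb1a and Mnd1 among the lower. For a gene at the floor a difference at E8.5 could not be measured, and its stage contrast sets a measured or partly measured difference at E10.5 against signal near background.

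All 17 genes were also called in the Norrin difference at E10.5, where 741 genes (4.07%) were called, and none of them at E8.5, where 14 genes (0.077%) were called; with the replicate block described next, Abcb1a was called at E8.5 too (adjusted p = 0.0113). These 2 comparisons share their arrays with the stage contrast, so the overlap is a description. Within a stage, deviations of same-numbered wild type and Z/Norrin pools correlated, at 0.318 to 0.73 at E8.5 and 0.209 to 0.506 at E10.5. The titles state no pairing. With the replicate number as a block within stage, the stage contrast called 376 genes, 149 higher (0.819%) and 227 lower (1.25%). All 17 genes were among the 376, and 276 of the 376 were above the E8.5 floor. Genes outside the 17 were not called in the stage contrast without the block, also where only an adjusted p with the block is given below. Without both Z/Norrin pools numbered 2, and without the block, 13 genes were called, 8 of them among the 17. The count without the block moved with single pools. It was 6, 5 and 36 without wild type E8.5 replicate 1, 2 and 3; 6 and 9 without Z/Norrin E8.5 replicate 1 and 2; 5 and 7 without wild type E10.5 replicate 1 and 2; and 31 and 6 without Z/Norrin E10.5 replicate 2 and 3. Saa4, Slc16a7, Rasgrp2, Flt1 and Aox4 were called in every alternative that tested them, and all 17 genes kept their sign in all of them. The other 12 were called in 1 (Nqo2) to 8 (Gulo) of the 12 fits that each left out a pool. When only genes above the E8.5 floor were fitted, Flt1 and Rasgrp2 were called (adjusted p = 0.00693 for both), and Fbp2 (0.0505), Pnp (0.0762), Adamts1 and Misp (0.0884) and Cpt2, Nqo2 and Rhob (0.0926) were not.

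**Figure D1:**
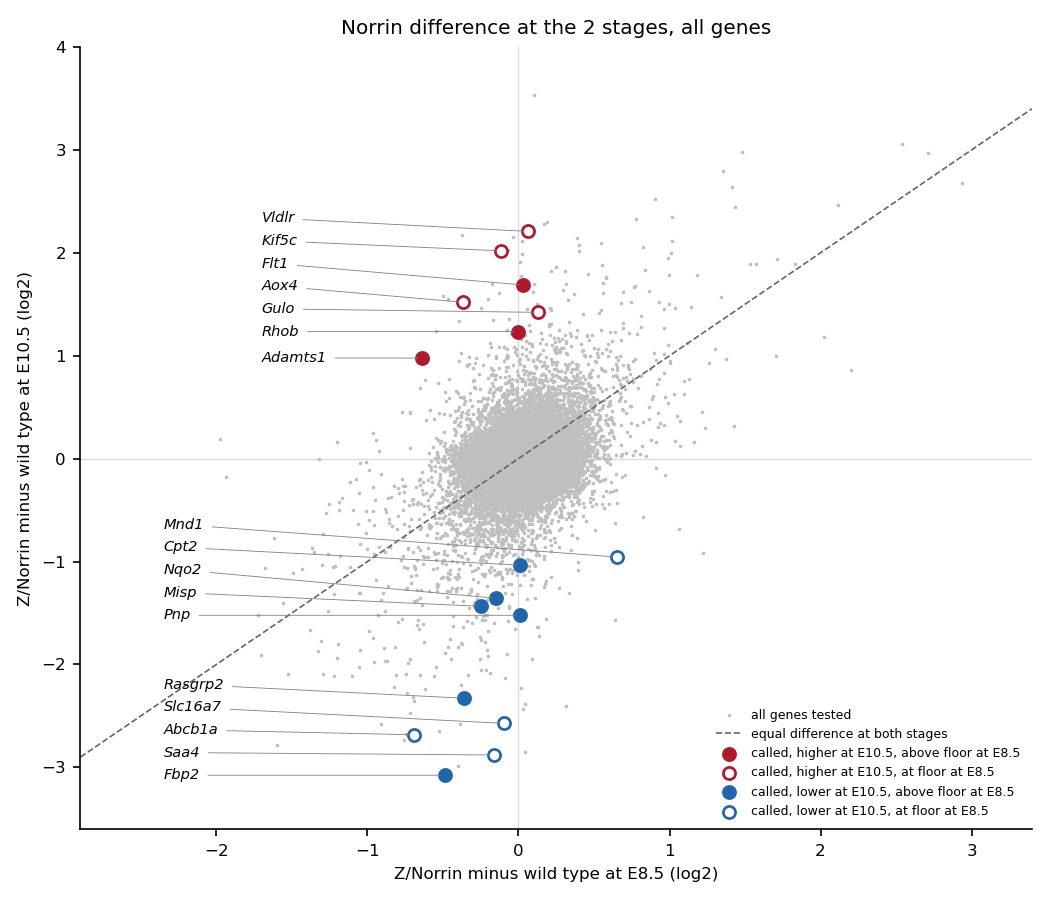
Z/Norrin minus wild type at E8.5 (x axis, log2) against the same difference at E10.5 (y axis, log2), 1 point for each of the 18193 genes; large symbols are the 17 called genes, red for higher and blue for lower at E10.5, filled where the gene was above the E8.5 floor and open where it was not. The dashed line marks equal differences, and the called genes lie far from it in the vertical direction, with E8.5 differences between -0.69 and 0.65.

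Among lower genes above the floor at E8.5, the clearest was Rasgrp2, an exchange factor that activates the small GTPase Rap1. Wild type pools read 9.26, 9.44 and 9.13 at E8.5, and Z/Norrin pools 9.17, 8.94 and 8.64. At E10.5 wild type pools read 9.69, 9.83 and 9.51, and Z/Norrin pools 7.38, 7.27 and 7.39. The groups overlapped at E8.5 and lay far apart at E10.5, where the Z/Norrin pools came down to just above the floor. The difference was -0.36 at E8.5 and -2.33 at E10.5, a 5.02-fold lower level, and the stage contrast was -1.97 ± 0.21 (SE, n = 3 a group; 95% confidence interval -2.42 to -1.51; adjusted p = 0.00301). A further Rasgrp2 probe set gave -1.93, while the remaining pair gave -0.53 and -0.36.

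Fbp2, the muscle-type fructose bisphosphatase of gluconeogenesis, had the largest difference in this set. Its pools read 9.30, 8.56 and 9.45 in wild type and 8.85, 8.13 and 8.85 in Z/Norrin at E8.5. At E10.5 they read 10.98, 11.50 and 10.77 in wild type and 7.99, 8.20 and 7.83 in Z/Norrin. The E8.5 groups overlapped, while at E10.5 all wild type pools stood above all Z/Norrin pools by more than the whole spread at E8.5. The stage contrast was -2.59 ± 0.38 (SE; adjusted p = 0.0326), from -0.49 at E8.5 and -3.08 at E10.5, an 8.44-fold lower level.

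Pnp, purine nucleoside phosphorylase of the purine salvage pathway, read 11.08, 10.90 and 10.77 in wild type and 11.05, 11.19 and 10.55 in Z/Norrin pools at E8.5. At E10.5 it read 12.03, 12.10 and 11.83 against 10.38, 10.56 and 10.44. The Z/Norrin pools were interleaved with wild type at E8.5 and all below it at E10.5. Its stage contrast was -1.54 ± 0.23 (adjusted p = 0.0358).

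Cpt2, which frees fatty acids from carnitine inside mitochondria, read 10.75, 10.61 and 10.80 in wild type at E8.5, against 10.74, 10.63 and 10.83 in Z/Norrin. At E10.5 the values were 11.65, 11.65 and 11.52 against 10.75, 10.51 and 10.45. The genotypes overlapped closely at E8.5 and were apart at E10.5, where wild type was higher, and the stage contrast was -1.05 ± 0.17 (adjusted p = 0.0463). A second Cpt2 probe set, at a mean level of 5.99, gave -0.34.

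Nqo2, a quinone reductase, read 8.07, 7.78 and 8.28 in wild type and 7.83, 7.97 and 7.88 in Z/Norrin pools at E8.5. At E10.5 the wild type pools read 9.30, 9.30 and 9.04 and the Z/Norrin pools 7.89, 7.90 and 7.78. Z/Norrin pools lay within the wild type range at E8.5 and all under it at E10.5, with a stage contrast of -1.20 ± 0.19 (adjusted p = 0.0463). Misp, an actin-binding protein that positions the mitotic spindle, was close to the floor at E8.5, at 7.61 ± 0.15 in wild type and 7.36 ± 0.05 in Z/Norrin (SD, n = 3), and read 9.13 ± 0.17 and 7.70 ± 0.14 at E10.5. Its stage contrast was -1.19 ± 0.18 (SE; adjusted p = 0.0372), and with the floor at the 99th percentile it no longer counted as above it.

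Of the 4 lower genes at the floor at E8.5, only Mnd1 was also at the floor in wild type at E10.5. Saa4, a constitutive serum amyloid A protein of plasma lipoproteins, read 6.30, 6.37 and 6.62 in wild type and 6.10, 6.51 and 6.20 in Z/Norrin pools at E8.5. At E10.5 it read 9.01, 9.15 and 8.78 in wild type, and 5.96, 6.22 and 6.13 in Z/Norrin. The Z/Norrin pools were under the floor at both stages, and only wild type E10.5 stood above it. The stage contrast of -2.72 ± 0.21 (SE; 95% confidence interval -3.18 to -2.26; adjusted p = 0.000339) had the smallest p of all genes. The second Saa4 probe set gave -1.46.

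Slc16a7, a carrier of lactate and pyruvate, read 3.94, 4.0 and 4.03 in wild type and 3.72, 3.97 and 3.99 in Z/Norrin at E8.5, far under the floor. At E10.5 the wild type pools read 8.87, 9.44 and 8.85, and the Z/Norrin pools 6.45, 6.68 and 6.31. Signal was higher at E10.5 than at E8.5 in both genotypes, with the Z/Norrin pools still under the floor. Its stage contrast was -2.48 ± 0.23 (adjusted p = 0.00145).

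Abcb1a, the drug efflux pump P-glycoprotein, read 6.28, 6.20 and 6.41 in wild type and 5.50, 5.62 and 5.69 in Z/Norrin at E8.5. At E10.5 it read 8.84, 9.19 and 8.55 against 6.11, 6.60 and 5.82. The genotypes did not overlap at either stage, but at E8.5 both lay under the floor. The E8.5 difference of -0.69 (adjusted p = 0.416, and 0.0113 with the block) therefore cannot be told from one of background signal. At E8.5 the gene's second probe set gave -0.91. The stage contrast was -1.99 ± 0.28 (adjusted p = 0.0261), and the other Abcb1a probe set gave -2.16. Mnd1, a factor of meiotic recombination, was under the floor in all 4 groups, at 6.02 ± 0.33, 6.67 ± 0.20, 6.47 ± 0.17 and 5.51 ± 0.12 (SD; wild type and Z/Norrin at E8.5, then at E10.5). Its contrast of -1.60 ± 0.24 (SE; adjusted p = 0.0358) is therefore a difference in signal with no level above background behind it; Mnd1 was named after its values were seen.

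All 10 lower genes had a higher wild type mean at E10.5 than at E8.5. That comparison of levels spans what appear to be separate normalisation runs and shares arrays with the stage contrast, and is given as a description.

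Flt1, a VEGF receptor of endothelium that also exists as a soluble VEGF trap, led the higher genes above the floor. Wild type pools read 8.36, 8.47 and 8.52 at E8.5, and Z/Norrin pools 8.36, 8.41 and 8.67. At E10.5 wild type pools read 8.52, 8.54 and 8.66, and Z/Norrin pools 10.10, 10.44 and 10.25. The 9 pools outside the Z/Norrin E10.5 group all fell within a narrow band, and the Z/Norrin E10.5 pools stood well above it. The difference was 0.03 at E8.5 and 1.69 at E10.5, a 3.22-fold higher level, with a stage contrast of 1.65 ± 0.18 (SE; 95% confidence interval 1.27 to 2.04; adjusted p = 0.00301). The other Flt1 probe sets gave 1.25, 1.63 and 1.46. Of the 24 pan-endothelial genes measured, Flt1 was the only one past an unadjusted p of 0.05, and the list's median was 0.06, beside 0.03 over all genes, and ran from -0.08 to 0.19 over the alternatives. Kdr, the main signalling receptor for VEGF, had a stage contrast of 0.05, and Pecam1, a junction protein of endothelium, -0.11.

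Rhob, a small GTPase of endosomes, read 10.03, 10.05 and 9.92 in wild type and 10.01, 10.28 and 9.70 in Z/Norrin pools at E8.5. At E10.5 it read 10.34, 10.10 and 10.23 against 11.53, 11.43 and 11.41. As with Flt1, the single high group was Z/Norrin at E10.5, and the stage contrast was 1.24 ± 0.20 (adjusted p = 0.0471). Adamts1, a secreted metalloprotease that cleaves proteoglycans, was the called gene above the floor whose differences pointed opposite ways at a size over 0.3. It read 9.48, 9.57 and 9.42 in wild type and 9.14, 8.99 and 8.43 in Z/Norrin at E8.5, and 9.42, 8.90 and 9.07 against 10.05, 10.24 and 10.02 at E10.5. Z/Norrin pools were thus all below wild type at E8.5 (-0.64; adjusted p = 0.416, not called) and all above it at E10.5 (0.98; adjusted p = 0.0104). The stage contrast was 1.62 ± 0.26 (adjusted p = 0.0463).

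Vldlr, a receptor for lipoproteins and reelin, had the largest contrast among higher genes at the floor at E8.5. Its pools read 4.31, 4.56 and 4.22 in wild type and 4.15, 4.47 and 4.64 in Z/Norrin at E8.5. At E10.5 they read 7.03, 7.26 and 7.78 against 9.10, 9.88 and 9.71. Signal was at background in every E8.5 pool and near the floor in wild type at E10.5, and only the Z/Norrin E10.5 pools were all above it by a wide margin. The stage contrast was 2.15 ± 0.33 (SE; adjusted p = 0.0372), and the other Vldlr probe sets ranged from 0.28 to 2.61.

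Kif5c, a kinesin heavy chain of neurons, read 6.01 ± 0.08 and 5.90 ± 0.46 in wild type and Z/Norrin at E8.5 and 6.64 ± 0.12 and 8.66 ± 0.28 at E10.5 (SD, n = 3). Its contrast was 2.13 ± 0.29 (SE; adjusted p = 0.0223), but its other probe sets gave 0.33, 0.41 and 0.06, so the gene's value rests on 1 probe set. Aox4, an aldehyde oxidase, read 4.94, 5.00 and 5.18 against 4.55, 4.62 and 4.85 at E8.5, and 5.66, 6.09 and 5.79 against 7.17, 7.63 and 7.30 at E10.5. Its Z/Norrin E10.5 mean of 7.37 was barely over the floor, and the contrast was 1.89 ± 0.22 (adjusted p = 0.006). Gulo, the last enzyme of vitamin C synthesis, stayed under the floor in all 4 groups, at 5.15 ± 0.08, 5.28 ± 0.09, 5.00 ± 0.01 and 6.42 ± 0.21 (SD), with a contrast of 1.29 (adjusted p = 0.0174). It too was named after its values were seen.

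**Figure D2:**
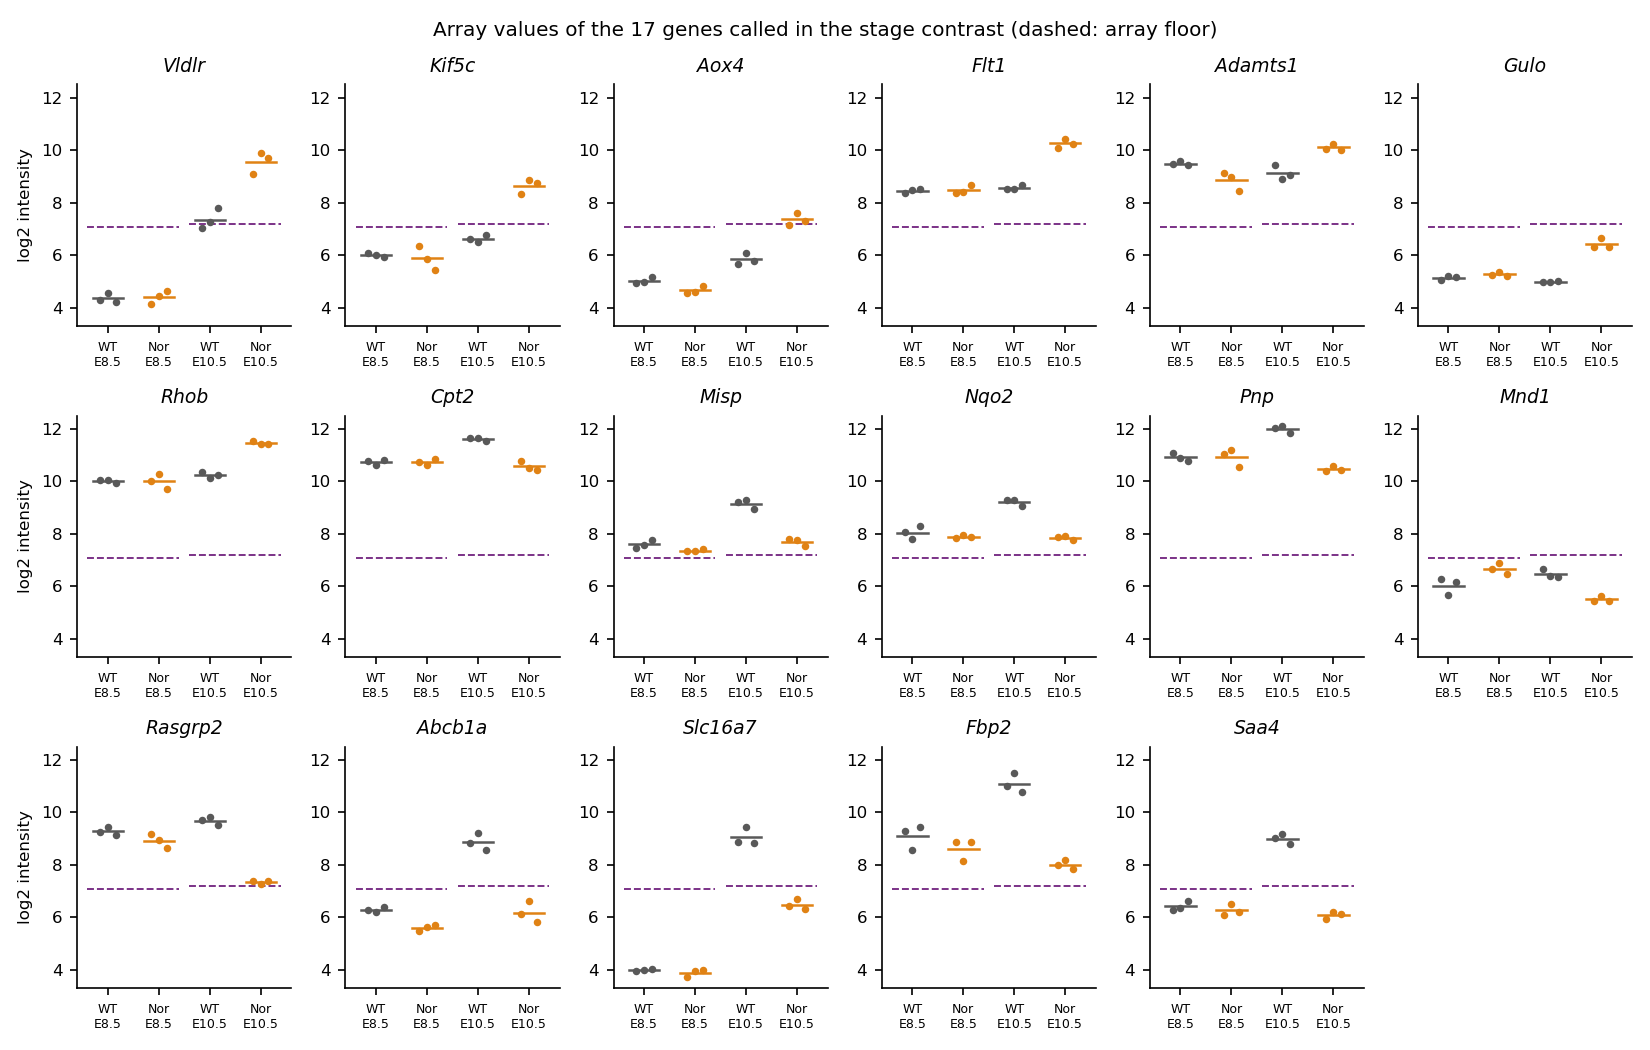
Log2 intensity of the 17 called genes in every pool (points) with group means (bars), wild type in grey and Z/Norrin (Nor) in orange, from the highest to the lowest stage contrast; dashed lines mark the floor of each stage. In Flt1 and Rhob the Z/Norrin E10.5 pools alone stand high, in Cpt2, Nqo2 and Pnp the wild type E10.5 pools alone stand high, and Gulo and Mnd1 lie under the floor in all groups.

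The largest stage contrast of all genes was that of Pga5, a pepsinogen, which missed the threshold. Its pools read 6.57, 6.42 and 7.90 in wild type and 6.36, 7.02 and 7.82 in Z/Norrin at E8.5, and 8.34, 8.12 and 8.04 against 12.20, 11.65 and 11.24 at E10.5. The E8.5 pools were widely spread around the floor with both genotypes mixed, and both E8.5 means were under it. The contrast was 3.43 ± 0.58 (SE; adjusted p = 0.0586, and 0.000579 with the replicate block). Cebpa, a transcription factor of liver and endoderm, read 7.25 ± 0.64 and 6.86 ± 0.45 at E8.5, with wild type just over the floor, and 10.77 ± 0.25 and 7.78 ± 0.48 at E10.5 (SD). Its contrast of -2.59 had an adjusted p of 0.0677, and 0.0159 with the block.

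Genes that cells switch on when oxygen is low formed the list with the largest positive median. Of 26 genes listed, 24 were measured and 20 were above the floor at E8.5. Their median Norrin difference was -0.04 at E8.5 and 0.81 at E10.5, and the median stage contrast 0.71, against an all-gene median of 0.03. By unadjusted p under 0.05, 16 of 24 were higher and 0 lower, where 3.15% of all genes were higher and 3.86% lower. These all-gene shares are the background for every list count at that threshold below. With the replicate block 7 were called higher, namely Vldlr, Egln3, Adm, Ddit4, Car12, Bhlhe40 and Egln1, where 0.819% of all genes were. Without the block Vldlr alone was called. The members were chosen with results of these data known, so the counts are no independent support.

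Pool by pool, the median of the hypoxia list relative to the wild type mean of its stage was 0.02, 0.10 and -0.18 in Z/Norrin at E8.5 and 0.64, 0.99 and 0.63 at E10.5. Wild type pools lay between -0.10 and 0.07, so the 3 Z/Norrin E10.5 pools stood above all others. Over the alternatives the list's median contrast ran from 0.60 to 0.90, and it was 0.69 without both Z/Norrin pools numbered 2.

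Egln3, a prolyl hydroxylase that marks HIF for destruction and is itself induced by HIF, read 7.09, 7.50 and 7.01 in wild type and 7.41, 7.57 and 6.69 in Z/Norrin at E8.5, around the floor. At E10.5 it read 6.37, 6.65 and 6.33 against 7.85, 9.28 and 8.18. Wild type pools were all under the floor at E10.5 and Z/Norrin pools all above it. The contrast was 1.96 ± 0.46 (adjusted p = 0.169, and 0.0153 with the block). Ddit4, an inhibitor of mTOR signalling, read 7.03, 7.11 and 7.16 against 7.50, 7.28 and 7.72 at E8.5, and 7.92, 8.76 and 7.69 against 10.47, 10.04 and 9.92 at E10.5. Its Z/Norrin pools were above wild type at both stages, by 0.40 and then 2.02, with a contrast of 1.62 ± 0.34 (adjusted p = 0.126, and 0.0307 with the block). Egln1, the main oxygen-sensing prolyl hydroxylase, was well above the floor throughout. Its difference was -0.13 at E8.5 and 0.54 at E10.5, with a contrast of 0.68 ± 0.18 (adjusted p = 0.249, and 0.0379 with the block).

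The HIF complex binds the letters ACGTG, which were searched on both strands of the 300 bases from 250 before to 50 after each RefSeq start site (GRCm38.p6). They stood in at least 1 window of 15 of the 21 hypoxia genes with a window (71.4%), beside 3776 of 14452 genes tested (26.1%). In the other lists searched, they stood in 4 of 9 haem and globin genes (44.4%) and 4 of 11 Wnt beta-catenin targets (36.4%). Of the erythroid transcription factors 3 of 12 (25%) held them, and of the red cell membrane genes 0 of 11. Stretches before the start site are shown for Egln3, Ddit4 and Egln1, which hold the letters and were called with the block; capitals mark the match.
Egln3: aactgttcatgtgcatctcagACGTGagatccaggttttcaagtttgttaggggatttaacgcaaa
Ddit4: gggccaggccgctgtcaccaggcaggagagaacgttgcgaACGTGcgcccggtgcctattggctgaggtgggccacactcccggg
Egln1: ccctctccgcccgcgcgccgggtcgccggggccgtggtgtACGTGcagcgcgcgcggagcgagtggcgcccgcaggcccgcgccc
These lie at chr12:54204059-54204124, chr10:59951913-59951997 and chr8:124949278-124949362, all on the minus strand, with the match beginning 229, 187 and 68 bases before the start site. The match in Egln3 lies far upstream and that in Egln1 close to the start. Among the 17 called genes 14 had a window, and 2 of them (14.3%), Aox4 and Fbp2, held ACGTG. None of the 14 held the TCF/LEF letters CTTTGAT, which 3.46% of all genes held. A match is a description of the letters in this window and no evidence of binding.

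Of 12 angiogenic ligands measured, 4 were higher at an unadjusted p under 0.05 and 0 lower, with a median contrast of 0.19. That median was 0.71 over the members above the floor at E8.5, 0.30 without wild type E10.5 replicate 1, and 0.13 with arrays centred on their medians. Ccn2, a matricellular protein induced by YAP and TGF-beta, read 9.40, 9.51 and 8.31 against 9.54, 9.29 and 8.90 at E8.5, and 8.60, 8.82 and 8.07 against 10.36, 11.22 and 10.75 at E10.5. Both genotypes overlapped at E8.5 and were apart at E10.5, with a contrast of 2.11 ± 0.46 (adjusted p = 0.143, and 0.0113 with the block). The related Ccn1 had a contrast of 1.52 (adjusted p = 0.145, and 0.0126 with the block). Adm, the vasodilator peptide adrenomedullin, had 1.73 (adjusted p = 0.261, and 0.0304 with the block). Vegfa, the ligand for Kdr and Flt1, had 0.67 (unadjusted p = 0.0434), while Angpt1 and Angpt2, ligands of Tek, had 0.13 and -0.05. Of 15 glycolytic enzymes measured, none was called, and 5 were higher at an unadjusted p under 0.05 and 0 lower, with a median of 0.42. Hk2, the inducible hexokinase, had a contrast of 1.05 (adjusted p = 0.427, and 0.0341 with the block), and Ldha, lactate dehydrogenase, -0.01.

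Immediate early genes, transcription factors and regulators that respond within minutes to growth factors or stress, were positive in all 21 measured members. Their median contrast was 0.58, with the median Norrin difference at -0.09 for E8.5 and 0.33 for E10.5. At an unadjusted p under 0.05, 10 were higher and 0 lower, beside 3.15% and 3.86% of all genes. Z/Norrin pools read 0.10, 0.75 and 0.21 above the wild type mean at E10.5, and -0.14, 0.13 and -0.24 at E8.5. The pool numbered 2 was the highest Z/Norrin pool at each stage, and at E10.5 the pool numbered 1 was level with the highest wild type pool, also at 0.10. The list's median contrast was 0.56 without both Z/Norrin pools numbered 2. Jun, a subunit of AP-1, read 7.17, 7.56 and 6.55 against 7.65, 8.14 and 7.13 at E8.5, and 7.99, 8.38 and 8.16 against 10.18, 10.58 and 10.05 at E10.5. Its contrast was 1.55 ± 0.39 (adjusted p = 0.23, and 0.00148 with the block), and with the block its E8.5 difference of 0.55 was called too (adjusted p = 0.0309). Egr1, a zinc finger factor induced by serum, had 2.10 ± 0.58 (adjusted p = 0.285, and 0.0946 with the block), with its 3 Z/Norrin pools at E8.5 spread from 5.97 to 7.66.

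Interferon response genes were mostly at the floor at E8.5, where 6 of 17 were above it. Their median contrast was 0.58, and 8 were higher at an unadjusted p under 0.05 with 0 lower. Ifit1, which binds foreign RNA, read 4.66, 5.05 and 5.27 against 4.49, 4.78 and 4.58 at E8.5, and 5.71, 5.70 and 5.40 against 6.88, 8.38 and 8.05 at E10.5. At E10.5, 1 of its 3 Z/Norrin pools was still under the floor, and the contrast was 2.54 ± 0.43 (adjusted p = 0.0586, and 0.0159 with the block). Rtp4 had 1.52 (0.0142 with the block, not called without it). Pool medians at E10.5 were 0.12, 0.96 and 0.36 in Z/Norrin, so the list was uneven between pools, again highest in the pool numbered 2, the one that carried the trophoblast signal. The median contrast was 0.35 without that pool, 0.38 without both Z/Norrin pools numbered 2, and 0.28 over the members above the floor at both stages. The part of trophoblast cells in these lists was not tested.

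Red cell genes had the most negative list median of the stage contrast. Among 14 red cell membrane and surface genes, 13 above the floor at E8.5, the median difference went from -0.18 at E8.5 to -1.28 at E10.5. The median contrast was -0.94, all 14 were negative, and 6 were lower at an unadjusted p under 0.05 with 0 higher. Relative to the wild type mean, the list's median read -0.20, -0.05 and -0.29 in Z/Norrin pools at E8.5 and -1.41, -1.23 and -1.22 at E10.5. Wild type E10.5 pools were themselves spread, at -0.40, 0.12 and 0.51, and leaving out wild type E10.5 replicate 1 or 3 took the median contrast to -1.33 or -0.64. In whole yolk sac, fewer red cells and less RNA per red cell cannot be told apart.

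Bpgm, which makes the haemoglobin regulator bisphosphoglycerate, read 9.51, 9.03 and 9.26 against 9.14, 9.08 and 8.43 at E8.5, and 9.60, 10.15 and 10.05 against 7.50, 8.19 and 7.51 at E10.5. It had the largest contrast of the list, -1.82 ± 0.34 (adjusted p = 0.0838, and 0.0113 with the block). Rhd, the Rh blood group protein, read 8.14, 7.83 and 8.40 against 7.85, 8.01 and 8.11 at E8.5, and 8.98, 9.82 and 10.27 against 8.21, 8.45 and 8.05 at E10.5. Its genotypes were mixed at E8.5 and separate at E10.5, with a contrast of -1.32 ± 0.38 (adjusted p = 0.308, and 0.0793 with the block). Epb42, a protein of the red cell skeleton, had -1.48 and Slc4a1, the band 3 anion exchanger, -1.19. Neither was called without the block.

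Haem synthesis enzymes and embryonic globins had a median contrast of -0.59, with 8 of 11 lower at an unadjusted p under 0.05 and 0 higher. Alas2, the erythroid enzyme that starts haem synthesis, read 10.75, 9.84 and 10.65 against 10.42, 10.46 and 10.76 at E8.5, and 10.37, 11.45 and 11.69 against 9.76, 9.54 and 9.31 at E10.5. Its contrast was -1.77 ± 0.45 (adjusted p = 0.226, and 0.0721 with the block). Alad, the next enzyme, was the tightest, with 10.80 ± 0.08 and 10.68 ± 0.07 at E8.5 and 10.77 ± 0.17 and 9.76 ± 0.12 at E10.5 (SD), and a contrast of -0.89 ± 0.17 (SE; adjusted p = 0.096, and 0.0326 with the block). The embryonic globins, whose wild type E8.5 means were 14.62 for Hbb-bh1 and 14.58 for Hba-x, had smaller contrasts: Hbb-bh1 had -0.53, Hba-x -0.54 and Hbb-y -0.00.

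Erythroid transcription factors had a median contrast of -0.58, with 6 of 14 lower at an unadjusted p under 0.05 and 0 higher. The median was -0.38 without wild type E10.5 replicate 3 and -0.95 with array weights. Hemgn, a nuclear protein of blood precursors, had -1.89 (adjusted p = 0.43, and 0.0341 with the block). Tal1, the factor that starts blood formation, had -1.63 (0.0191 with the block), while Klf1, a master factor of red cells, had -1.36 and Gata1 -0.91 (unadjusted p = 0.0893). None of these factors was called without the block.

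GATA factors bind sites that hold the letters AGATAA. These stood in at least 1 window of 4 of the 11 red cell membrane genes with a window (36.4%) and 2 of the 9 haem and globin genes (22.2%), beside 9.54% of all genes tested. They also stood in 3 of 12 erythroid transcription factors (25%), 3 of 11 Wnt beta-catenin targets (27.3%) and 1 of 21 hypoxia genes (4.76%). The letters were thus not particular to the red cell lists. Alas2 and Rhd are shown since their levels separated at E10.5 and they hold the letters. The match in Alas2 is on the opposite strand, so the reverse complement of the letters is marked.
Alas2: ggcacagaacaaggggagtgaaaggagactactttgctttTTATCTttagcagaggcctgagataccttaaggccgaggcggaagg
Rhd: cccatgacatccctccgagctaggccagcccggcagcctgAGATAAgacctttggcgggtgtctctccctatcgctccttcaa
These stretches lie at chrX:150547291-150547376 and chr4:134864453-134864535 on the plus strand (RefSeq, GRCm38.p6), with matches beginning 86 and 43 bases before the start site. None of the 14 called genes with a window held AGATAA.

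**Figure D3:**
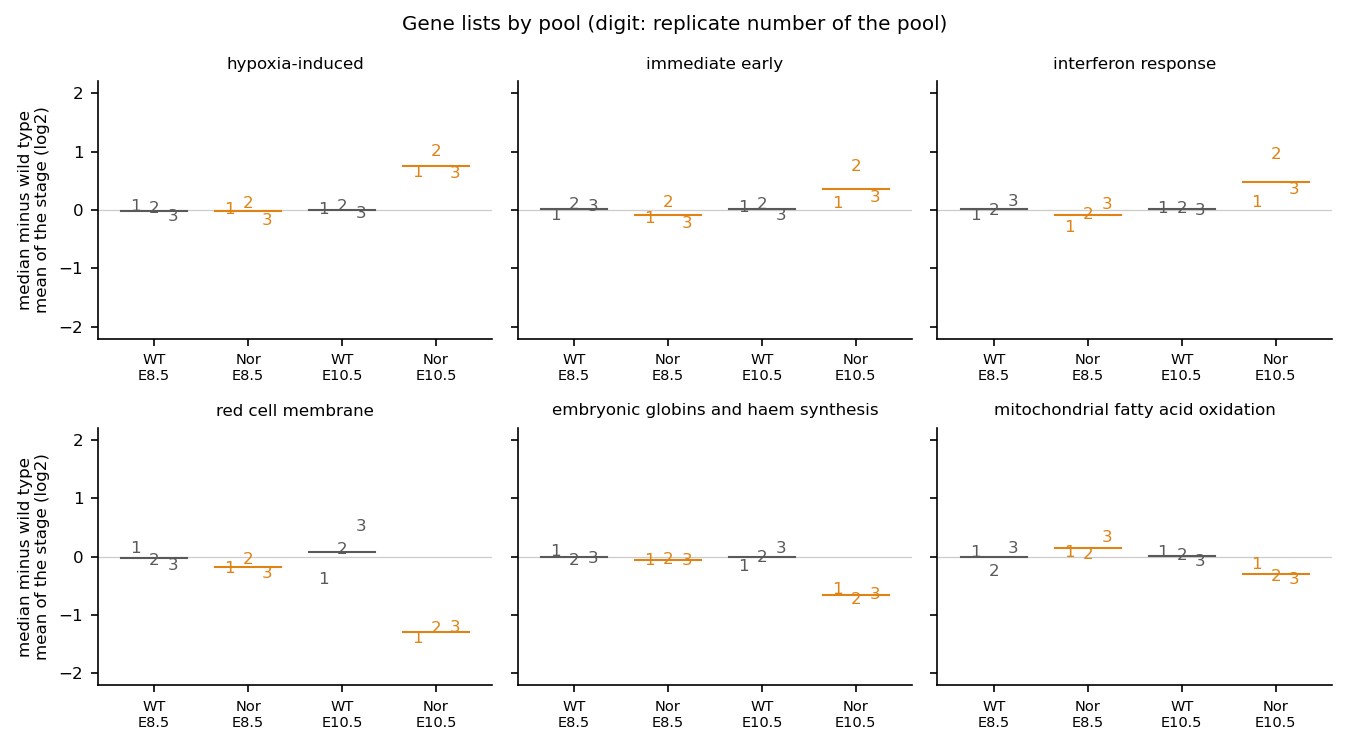
Median level of 6 gene lists in each pool, relative to the wild type mean of the same stage (y axis, log2); digits are the replicate numbers of the pools, bars the means of 3 pools, grey wild type and orange Z/Norrin (Nor). The Z/Norrin E10.5 pools stand apart for the hypoxia, red cell membrane and haem lists, while for the immediate early list pool 1 (0.10) lies at the wild type range.

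The lists for fatty acid oxidation, sterols, glutathione transferases and apolipoproteins had negative medians in the contrast. For mitochondrial fatty acid oxidation, with all 16 members above the floor at E8.5, the median difference went from 0.16 at E8.5 to -0.33 at E10.5, the median contrast was -0.46, and 5 were lower at an unadjusted p under 0.05 with 0 higher. Without wild type E8.5 replicate 2 the median contrast was -0.28. Besides Cpt2, Acadl, the long-chain acyl-CoA dehydrogenase, had -1.12 ± 0.23 (adjusted p = 0.121, and 0.0124 with the block). Acads, the short-chain enzyme, had -0.66 (adjusted p = 0.633, and 0.0261 with the block). Acadl pools read 9.72, 9.56 and 9.58 against 9.83, 9.82 and 10.02 at E8.5 and 10.40, 11.04 and 10.58 against 9.76, 10.01 and 9.68 at E10.5. Z/Norrin was thus above wild type in every pool at E8.5 and below it in every pool at E10.5, though neither the E8.5 difference (0.27; adjusted p = 0.736) nor the contrast was called without the block.

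Cholesterol synthesis and uptake gave a like pattern, with a median of 0.12 at E8.5, -0.45 at E10.5 and -0.56 for the contrast; 6 of 16 were lower at an unadjusted p under 0.05 and 0 higher. Lss, which closes the sterol ring, had -1.12 (adjusted p = 0.352, and 0.00572 with the block), Mvd of the mevalonate pathway -0.87 (0.0155 with the block) and Fdps, which makes farnesyl diphosphate, -1.24 (0.0251 with the block). None of these genes was called without the block. Glutathione transferases and quinone reductases had a median contrast of -0.45, with 5 of 20 lower and 1 higher at an unadjusted p under 0.05; it was -0.69 without wild type E8.5 replicate 3 and also with array weights. Nqo2 was called, and Gsta2, Gsta3 and Gstm2, glutathione transferases, had -1.30, -2.46 and -0.76, with adjusted p of 0.0166, 0.022 and 0.0218 with the block. Without the block none of these transferases was called. Gsta3 and Gstm2 were at the floor at E8.5.

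Among apolipoproteins and lipoprotein assembly genes, 5 of 15 were lower at an unadjusted p under 0.05 and 0 higher, with a median contrast of -0.44. It was -0.28 without wild type E8.5 replicate 1 and -0.23 with array weights. Apoc1, a small exchangeable apolipoprotein, read 9.40, 9.43 and 10.55 against 9.68, 10.41 and 10.25 at E8.5, and 11.50, 12.26 and 10.86 against 9.04, 9.64 and 8.72 at E10.5. Its genotypes overlapped at E8.5 and not at E10.5, with a contrast of -2.72 ± 0.55 (adjusted p = 0.121, and 0.0045 with the block). Apoc2, the activator of lipoprotein lipase, had -1.14 (adjusted p = 0.101, and 0.013 with the block), while Apoe had -0.09, Apob -0.25 and Apoa4 0.24. Plasma proteins of the visceral endoderm had negative medians at both stages, -0.41 and -0.88, and their median contrast was -0.14, with 6 of 23 lower and 1 higher at an unadjusted p under 0.05. The sign of that median turned with single pools: it was 0.15, 0.07 and 0.03 without Z/Norrin E8.5 replicate 3, wild type E10.5 replicate 2 and wild type E8.5 replicate 2, and -0.48 without wild type E10.5 replicate 3. Besides Saa4, Serpina1c, an antitrypsin, had -2.12 (0.00899 with the block, not called without it) from under the floor at E8.5.

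**Figure D4:**
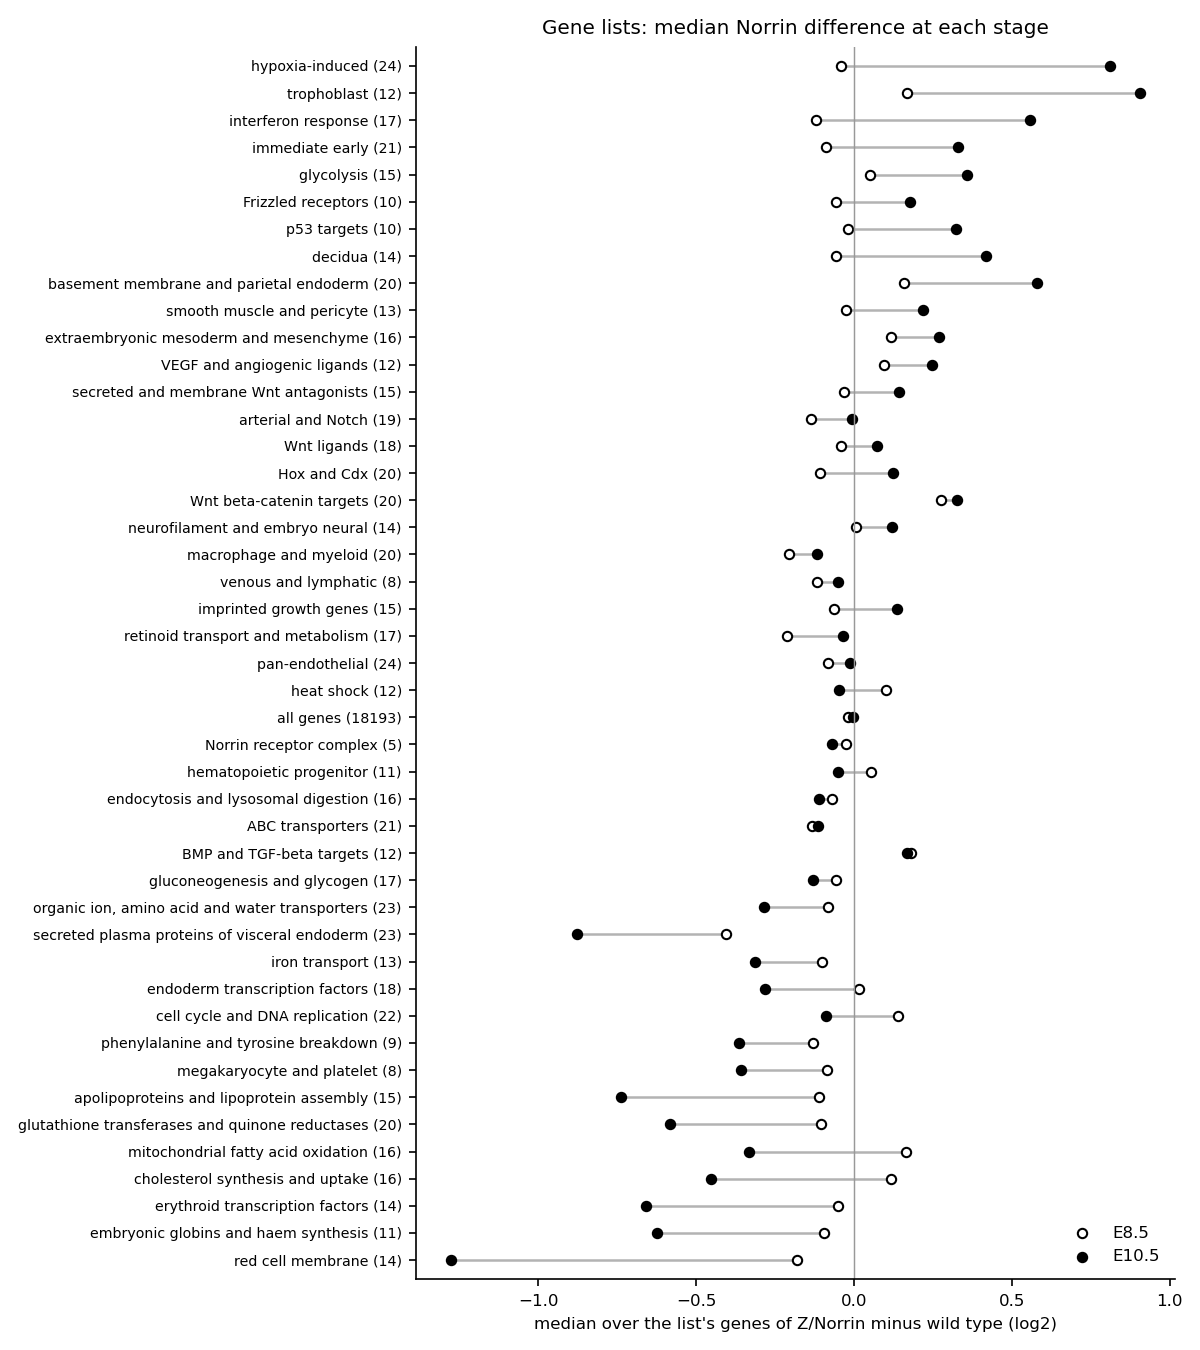
Median over each gene list of Z/Norrin minus wild type (x axis, log2) at E8.5 (open) and E10.5 (filled), for lists with 5 or more measured genes (number in brackets) and for all genes, ordered by median stage contrast. The 2 stages lie furthest apart for the red cell membrane list (-0.18 and -1.28) and the hypoxia list (-0.04 and 0.81), and close together for Wnt beta-catenin targets (0.28 and 0.33).

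No marker of another cell type was called in the stage contrast. Trophoblast and decidua markers were uneven over the pools. All 6 parietal endoderm markers were above the floor in every group. Their summed log2 level was 13.74 to 14.08 in wild type and 14.08 to 14.53 in Z/Norrin at E8.5. At E10.5 it was 14.32 to 14.48 against 14.89 to 15.08. In this sum every Z/Norrin pool was above every wild type pool at each stage, narrowly at E8.5. Of 20 basement membrane and parietal endoderm genes, 6 were higher in the stage contrast and 1 lower at an unadjusted p under 0.05. Of all genes, 3.15% were higher and 3.86% lower. The list's median contrast was 0.28, and it was 0.16 without wild type E10.5 replicate 1 and 0.46 without wild type E8.5 replicate 3. Plat, tissue plasminogen activator, had 1.76 (adjusted p = 0.145, and 0.0467 with the block). Trophoblast markers, of which 3 of 6 were measured, summed to 9.43 to 9.86 in wild type and 9.96 to 11.39 in Z/Norrin at E8.5, and 8.54 to 9.85 against 10.35 to 12.46 at E10.5. In the trophoblast sum too every Z/Norrin pool was above every wild type pool at each stage, narrowly at E8.5. The top of the Z/Norrin range at E10.5 came from pool 2, where Tpbpa, a marker of spongiotrophoblast, read 11.90 against 5.63 and 6.55 in the others. Of these, Ascl2 was at the floor in both wild type groups and in Z/Norrin at E10.5, and Tpbpa in both wild type groups and in Z/Norrin at E8.5. No trophoblast gene passed an unadjusted p of 0.05 in the contrast, and the list's median contrast of 0.63 was 0.03 without Z/Norrin E10.5 replicate 2, 0.22 and 1.07 without Z/Norrin E8.5 replicate 1 and 2, 0.16 without both Z/Norrin pools numbered 2, and -0.54 with array weights. The 3 decidua markers, with Pgr at the floor in all groups, summed to 9.73 to 11.07 and 9.08 to 10.49 at E8.5. At E10.5 they summed to 8.28 to 11.74 and 8.80 to 11.74, so in these markers the genotypes overlapped at both stages. The wider decidua list, with 14 genes measured and 7 above the floor at E8.5, was narrowly apart at E10.5. Its median relative to the wild type mean read 0.24, 0.16 and 0.79 in Z/Norrin against 0.08, -0.08 and -0.02 in wild type. Its median difference was -0.06 at E8.5 and 0.42 at E10.5, and its median contrast 0.30. That contrast was 0.16 without Z/Norrin E10.5 replicate 3 and 0.48 without Z/Norrin E8.5 replicate 1. Without both Z/Norrin pools numbered 2 it was 0.46. The part of these cells in the results above was not tested.

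The signalling genes closest to Norrin showed no called change between stages. Fzd4, the Norrin receptor, had levels of 9.28 ± 0.47 and 9.41 ± 0.38 at E8.5 and 10.01 ± 0.18 and 9.94 ± 0.17 at E10.5 (SD, n = 3), and a contrast of -0.20 with a 95% confidence interval of -0.92 to 0.53. Lrp5 had -0.46 (interval -0.90 to -0.01; adjusted p = 0.695), Lrp6 0.16 (interval -0.41 to 0.73) and Tspan12 -0.00 (interval -1.24 to 1.24). These intervals are wide, and a contrast of 1 lies outside those of Fzd4, Lrp5 and Lrp6 but inside that of Tspan12. All 4 were above the floor at E8.5. Wnt beta-catenin targets had medians of 0.28 and 0.33 at the stages and a median contrast of 0.14 (0.02 to 0.17 over the alternatives). At an unadjusted p under 0.05, 0 of 20 were higher and 1 lower, near the shares of all genes (3.15% and 3.86%). Frzb, a secreted Wnt antagonist, differed by 1.02 at E8.5 (adjusted p = 0.0933, and 0.0302 with the block) and 2.35 at E10.5 (adjusted p = 7.91e-05), with a contrast of 1.33 (adjusted p = 0.124, and 0.0301 with the block).

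The genes called at E8.5 all kept the sign of their Norrin difference at E10.5. Of the 14 genes called at E8.5, 10 higher and 4 lower in Z/Norrin, 13 were above the floor there, and none was called in the stage contrast. Sox17, an endoderm and arterial transcription factor, read 8.44, 8.66 and 7.0 against 10.82, 10.85 and 10.58 at E8.5, and 7.24, 7.71 and 7.69 against a Z/Norrin mean of 10.52 ± 0.47 (SD) at E10.5. Z/Norrin pools were higher than every wild type pool at both stages, with mean differences of 2.71 and 2.97, and the contrast was 0.26 with a 95% confidence interval of -0.85 to 1.37. Prom1, a protein of membrane protrusions, was the most precise, with 1.71 and 1.94 and a contrast of 0.23 (interval -0.20 to 0.66). For Cyp26a1, which breaks down retinoic acid, the contrast was 0.52 (interval -0.45 to 1.48), for Nefl, the light neurofilament chain, -0.25 (-1.26 to 0.76), for Flrt3, an adhesion protein, 0.35 (-0.67 to 1.38), for Cpm, a carboxypeptidase, 0.06 (-0.71 to 0.83), and for Zfp703, a transcriptional repressor, -0.33 (-0.76 to 0.10). An interval that includes 0 does not show equal differences: that of Sox17 reaches 1.37, over a 2-fold change.

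Among those 14, 5 had intervals that left out 0, none of them called. Scube2, a secreted protein that helps release Hedgehog ligands, read 6.66, 6.66 and 6.76 against 7.52, 7.83 and 7.78 at E8.5, and 6.26, 6.24 and 6.22 against 8.67, 8.22 and 8.16 at E10.5. Wild type lay under the floor at both stages and Z/Norrin above it at both, with a contrast of 1.09 ± 0.20 (adjusted p = 0.083, and 0.0164 with the block). Nefm, the medium neurofilament chain, read 6.50, 6.83 and 5.96 against 8.97, 8.94 and 7.99 at E8.5, and 4.25, 4.36 and 4.32 against 4.95, 5.54 and 5.02 at E10.5. It was under the floor in all E10.5 pools, so its contrast of -1.34 ± 0.39 (adjusted p = 0.323, and 0.0127 with the block) sets a measured rise at E8.5 against signal near background at E10.5. Tcim, a regulator of Wnt signalling, lay under the floor in both E8.5 groups and read 8.11 ± 0.15 and 7.93 ± 0.56 at E10.5 (SD), with a contrast of 1.75 (0.0178 with the block). Slc22a2, an organic cation carrier, differed by -1.68 at E8.5 against -1.06 at E10.5, with a contrast of 0.62. Slc40a1, the iron exporter ferroportin, had -1.09 and -0.50, with 0.59. Their unadjusted p were 0.0465 and 0.024. The remaining members, Msx2, a BMP-responsive homeobox factor, and Apoa4 had -0.70 and 0.24, with Msx2 called by the block (adjusted p = 0.0376).

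**Figure D5:**
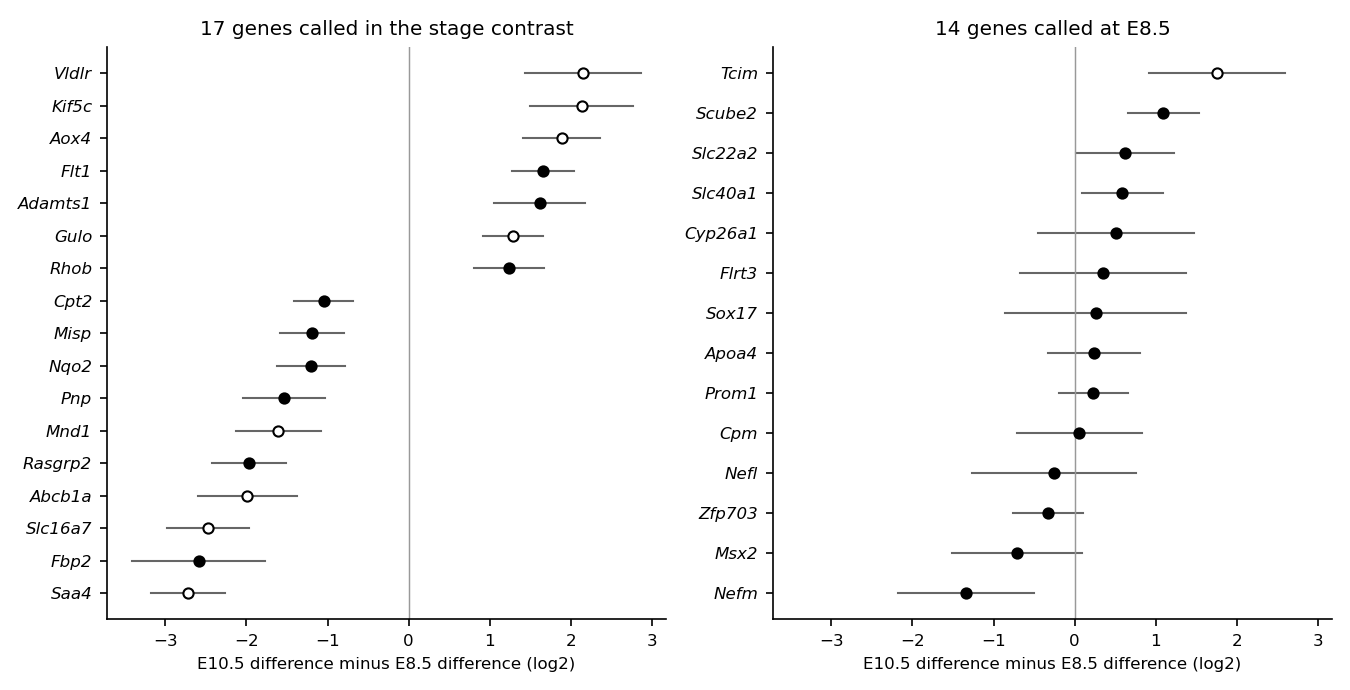
Stage contrast (x axis, log2) with its 95% confidence interval for the 17 genes called in it (left) and the 14 genes called at E8.5 (right); filled points were above the floor at E8.5, open points were not. Intervals on the left all leave out 0, and on the right 9 of 14 include it.

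Of the 741 genes called at E10.5, 526 were above the floor at E8.5 and 215 were not. In the stage contrast 17 of the 741 were called, 523 had an unadjusted p under 0.05, and for 218 the 95% confidence interval included 0. With the replicate block, 228 of the 741 were called in the contrast. Of all 18193 genes, 1275 had an unadjusted p under 0.05 in the contrast, and 376 were called in it with the block. Several of the largest E10.5 differences had the same sign at E8.5 and were not called there, though with the block Prss12 (adjusted p = 0.024) and Adh1 (0.0165) were. Prss12, a serine protease, had differences of 1.48 and 2.98, with a contrast of 1.50 (adjusted p = 0.384), Aqp8, a water channel, 1.41 and 2.64, with 1.22 (adjusted p = 0.634), and Retreg1, an endoplasmic reticulum receptor of autophagy, 1.35 and 2.80, with 1.45 (adjusted p = 0.563). All 3 were above the floor at E8.5. Adh1, an alcohol dehydrogenase that oxidises retinol, fell by 2.68 at E10.5 and differed by -0.74 at E8.5, with a contrast of -1.94 (adjusted p = 0.121, and 0.000861 with the block). Hgd of tyrosine breakdown had -0.76 and -2.73, with -1.97 (0.00627 with the block, not called without it), from under the floor at E8.5. The second Hgd probe set gave 0.11, and over the alternatives the contrast ran from -2.30 to -0.93.

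Opposite calls at the stages were rare. With the replicate block, 2400 of all 18193 genes were called at E10.5 and 257 at E8.5. Of the 376 genes in the contrast, 338 were called at E10.5 and 45 at E8.5. The comparisons share their arrays, so this overlap is a description. Among the 376, 4 were called at both stages with opposite signs. These were Dram1, Tnc, Cbr4 and Uxt, chosen after their values were seen, and all 4 were above the floor at E8.5. Dram1, a lysosomal protein of autophagy, read 9.67, 9.74 and 8.41 against 10.88, 10.67 and 9.92 at E8.5, and 9.69, 10.30 and 9.91 against 8.91, 9.17 and 9.07 at E10.5. Within each numbered pair Z/Norrin was above wild type at E8.5 and below it at E10.5, and the contrast was -2.13 ± 0.47 (adjusted p = 0.145, and 0.00142 with the block). Tnc, the matrix protein tenascin C, went the other way, from -0.53 to 0.74, with a contrast of 1.27 (adjusted p = 0.326, and 0.00321 with the block). Cbr4, a mitochondrial reductase, had -0.86 and Uxt, a prefoldin-like chaperone, -1.05. Without the block none of these 4 was called in the contrast or at either stage.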

How the data were processed

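RNA from whole yolk sac was hybridised to 12 Affymetrix arrays. The authors deposited log2 intensities; the submitters' processing notes name RMA, and its version is not given in the sources used here. Identical values within a stage (26 to 93 per pair of arrays) and none across stages were found, so each stage appears to have been normalised in its own run, which the labels do not state.

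From these values, 34945 of 45101 probe sets named 1 gene; 932 with several genes, 9160 with none and 64 controls were left out. Each gene took the probe set with the highest mean over all arrays. One linear model with a mean for each of the 4 groups was fitted in limma 3.58.1 (R 4.3.3) on all 12 arrays, with Benjamini-Hochberg adjustment over 18193 genes and a threshold of 0.05. The model was tested on simulated data. Deviations of same-numbered wild type and Z/Norrin pools from their group means correlated at 0.726, 0.318 and 0.73 at E8.5 and 0.506, 0.209 and 0.219 at E10.5. The replicate block adds the replicate number of the titles, taken to pair pools within a stage, which the titles do not state. At E10.5 replicates 2 and 3 came close to the highest correlation across stages, 0.204, so the pairing is less sure there. Alternatives covered blocks, scaling, filters, weights, probe sets and single pools. Genes and gene lists were chosen with earlier results of these data known. Named genes were the Norrin receptor genes, called genes with a group mean above the floor of its stage (15 at most per direction), the 10 largest called differences per stage and direction, and the 3 genes per list with the largest contrast. Named after their values were seen, outside that rule, were Kdr, Pecam1, Ddit4, Car12, Bhlhe40, Egln1, Vegfa, Angpt1, Angpt2, Ldha, Rhd, Slc4a1, Hbb-bh1, Hba-x, Hbb-y, Gata1, Gstm2, Apoe, Apob and the genes marked so in the text; cell type markers were named from their lists. Promoter sequences come from RefSeq (GRCm38.p6).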

Additional observations from a re-analysis of the deposited data

Results flagged for a closer look

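The Norrin difference at E10.5 departed from that at E8.5 by a test of the difference itself (limma's stage contrast, adjusted p under 0.05) for 17 genes. The positive contrasts were 2.15 for Vldlr, 2.13 for Kif5c, 1.89 for Aox4, 1.65 for Flt1, 1.62 for Adamts1, 1.29 for Gulo and 1.24 for Rhob. The negative ones were -2.72 for Saa4, -2.59 for Fbp2, -2.48 for Slc16a7, -1.99 for Abcb1a, -1.97 for Rasgrp2, -1.60 for Mnd1, -1.54 for Pnp, -1.20 for Nqo2, -1.19 for Misp and -1.05 for Cpt2. In 8 of the 17 the E8.5 signal was at the array floor, and Gulo and Mnd1 were under it at both stages.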

How the results depend on the processing

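The count of genes called in the stage contrast was 17. It rose to 376 with the replicate block within stage, 2728 with array weights, 37 with the mean over probe sets, 29 with joint quantile normalisation, 26 (13 higher, 13 lower) with every named probe set tested, and 30 without both E8.5 pools numbered 3. It fell to 3 for genes above the floor at both stages and 2 for genes above it at E8.5. Leaving out 1 pool gave 5 to 36. The E8.5 count of 14 became 257 with the block within stage, 5 with a replicate block across both stages, 5147 with array weights, 7 with weights per stage, 22 with trend and robust, 0 with the stage's arrays alone (limma) and 1 without both Norrin pools numbered 2; without 1 pool it was 1 to 20. The E10.5 count of 741 became 2400 with the block within stage, 2316 with array weights, 1177 with weights per stage and 481 without both Norrin pools numbered 2; without 1 pool it was 353 to 894. The cause of these shifts was not tested. Leaving out 2 pools together was chosen after seeing the data. The block across stages called 13 genes in the contrast, 9 of them among the 17, and so ended 8 calls. Same-numbered pools of the stages correlated between -0.304 and 0.204, so pairing across stages was not assumed. The replicate block within stage ended no call of the 17 genes. All 17 kept their sign in every alternative, and the counts above the floor stayed within 1.5 times of 10585. With 3 pools a group, effects near the median SE of 0.22 cannot be resolved, and levels under the floor give no measure of a difference.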
